A study of Mus musculus with 4 samples.

Results

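Transcripts of the endoplasmic reticulum (ER) folding and quality control machinery were examined in mouse embryonic stem cells that lack the microRNA cluster miR-290-295. The set was defined by gene symbol and holds 38 genes, all of which were found among the 55421 gene identifiers of the count table. It was chosen with earlier results of these data known. Libraries of 3′ tags of poly(A) RNA (QuantSeq, a method that reads each transcript near its 3′ end) were made from 500 ng of RNA each, from knockout cells (KO, n = 2 libraries) and from wild-type cells (WT, n = 2 libraries). Both groups are E14 cells, an established line derived from a blastocyst of 129/Ola background, and both were grown on gelatin with 15% serum and 100 U/ml of the cytokine LIF. The KO cells differ from the WT cells by the deletion named in the labels, and whether the KO libraries stem from different clones is not given there. The series' design text calls the libraries biological duplicates. The p-values below set the difference between groups against the spread within groups, estimated with information shared across genes. They speak for these 4 libraries.

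The ER is the compartment in which secreted and membrane proteins fold. HSP70 and HSP90 family chaperones hold unfolded chains, the lectins calnexin and calreticulin hold glycoproteins, protein disulfide isomerases form and exchange disulfide bonds, and chains that fail to fold are returned to the cytosol and destroyed by the proteasome, a route called ER-associated degradation (ERAD). When unfolded protein builds up, 3 membrane sensors, IRE1 (Ern1), ATF6 (Atf6 and Atf6b) and PERK (Eif2ak3), start the unfolded protein response, in which cleaved ATF6 and spliced XBP1 raise transcription of chaperone and ERAD genes. A classic target site of that response is the ER stress response element (ERSE), CCAAT and CCACG with a fixed spacer between them.

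The cluster lies on chromosome 7 and encodes microRNAs whose seed, bases 2 to 8, pairs with sites in 3′ UTRs. The mature sequences of the 3 products that share 1 seed are printed because matches to that seed are counted among the members below. They are from RefSeq (GRCm38.p6), at chr7:3218968-3218989, chr7:3220691-3220712 and chr7:3220815-3220837 on the plus strand, with the seed in capitals.
miR-291a-3p: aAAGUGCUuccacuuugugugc
miR-294-3p: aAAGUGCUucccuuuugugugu
miR-295-3p: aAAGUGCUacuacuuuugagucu

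A promoter sequence, from 250 bases before to 50 bases after the RefSeq transcription start (GRCm38.p6), was matched for 32 of the 38 members. An exact ERSE (CCAAT, 9 bases, CCACG, searched on both strands) was present in 10 of the 32 member promoters, or 31.2%, against 39 of the 32851 promoters in the whole table, or 0.119%. The whole table includes the member promoters and those of genes not tested here. The members are chaperone and ERAD genes, the kinds of gene that this response is known to raise. These shares therefore describe the list and are not a test. The shorter ERSE-II (ATTGG, 1 base, CCACG) was present in 2 member promoters and in 12 promoters in all, or 0.0365%. Part of each element, CCACG alone, was in 25 of the 32 member promoters and in 32.8% of all promoters. TGACGTGG (0.676% of all promoters) and TGATGNAAT (0.965%), searched as a UPRE core and an ATF4 element, had exact matches in 0 of the 32. Near matches were not counted, so these zeros do not show that related elements are absent. The Herpud1 promoter printed below holds gttgcatca, which on the opposite strand differs from TGATGNAAT only at its final T. A match describes letters in this window and was not tested as a binding site.

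The element matches are printed so that genes that rose and genes that did not can be set side by side. Each is shown in the direction of the element with up to 6 bases on each side, and the fixed letters of the element are in capitals. The first 4 are from members higher in KO, and the rest from members that were not called or, for Ero1lb, not tested.
Hspa5: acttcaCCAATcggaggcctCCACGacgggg
Calr: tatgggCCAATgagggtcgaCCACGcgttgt
Dnajc3: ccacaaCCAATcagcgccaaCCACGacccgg
Herpud1 (ERSE-II): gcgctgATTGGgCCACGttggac
Hsp90b1, distal: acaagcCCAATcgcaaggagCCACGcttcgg
Hsp90b1, proximal: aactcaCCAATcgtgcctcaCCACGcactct
Pdia6: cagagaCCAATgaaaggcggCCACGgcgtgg
Canx: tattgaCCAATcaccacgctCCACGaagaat
Creld2: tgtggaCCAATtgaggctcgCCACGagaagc
Syvn1: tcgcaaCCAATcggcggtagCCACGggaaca
Derl3: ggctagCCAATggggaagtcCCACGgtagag
Ero1lb: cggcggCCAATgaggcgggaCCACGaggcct
Dnajb11 (ERSE-II): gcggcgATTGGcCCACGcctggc

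The whole promoter windows of Herpud1, the member with the largest change, and of Hspa5, the gene of the central ER chaperone BiP, follow with the matched elements in capitals. That of Herpud1 is chr8:94386179-94386478 and that of Hspa5 is chr2:34771840-34772139, both on the plus strand of GRCm38.p6.
Herpud1 promoter: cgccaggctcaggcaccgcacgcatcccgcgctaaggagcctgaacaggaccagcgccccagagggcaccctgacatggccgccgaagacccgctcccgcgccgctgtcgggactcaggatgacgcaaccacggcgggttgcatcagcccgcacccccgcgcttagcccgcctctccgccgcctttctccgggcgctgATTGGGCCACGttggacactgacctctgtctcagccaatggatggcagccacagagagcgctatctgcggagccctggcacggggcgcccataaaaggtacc
Hspa5 promoter: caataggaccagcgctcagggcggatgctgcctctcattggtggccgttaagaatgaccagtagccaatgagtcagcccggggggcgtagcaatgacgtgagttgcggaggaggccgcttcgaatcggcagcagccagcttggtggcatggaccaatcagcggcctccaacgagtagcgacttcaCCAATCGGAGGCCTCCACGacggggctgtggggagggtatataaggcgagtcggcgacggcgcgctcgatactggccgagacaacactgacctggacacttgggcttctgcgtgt

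**Figure D1:**
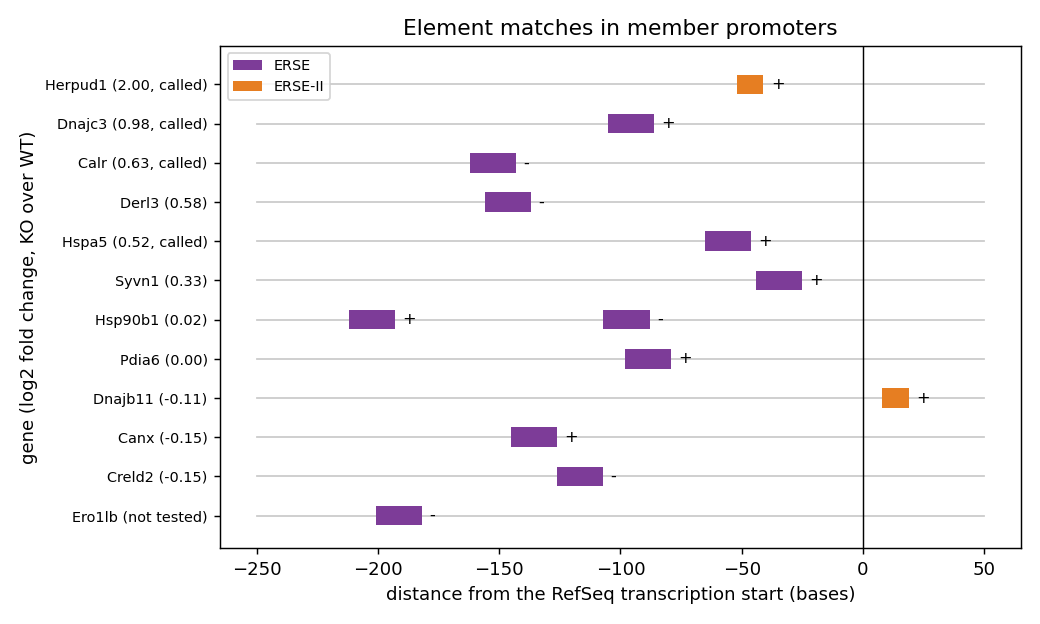
Positions of ERSE and ERSE-II matches in the 12 member promoters that hold one, as distance in bases from the RefSeq transcription start (vertical line), with the strand of the match beside each bar. Genes are ordered by log2 fold change, and those called higher stand among genes near 0 such as Hsp90b1 and Pdia6.

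The 4 libraries held between 9925557 and 12726123 counts, and 3 counts corresponded to 0.236 to 0.302 CPM (counts scaled to a common library total). The 7 plus-strand microRNA genes of the cluster together held 0 counts in each KO library and 88 and 39 in the WT libraries. Summed over 8 embryonic stem cell markers, the level was 3570 and 3599 CPM in KO and 3374 and 3608 in WT, and 1 of them, Utf1, was lower in KO. Of 10 primitive endoderm markers, genes of an extraembryonic lineage that secretes basement membrane, 8 were lower in KO and 0 higher, and their summed level was 95.1 and 76.1 CPM in KO against 319 and 310 in WT. The 6 fibroblast or feeder genes summed to 10.6 and 21.3 CPM in KO and 29.2 and 52.4 in WT (2 tested, both lower, and Col3a1 at 0 in all libraries). The 4 neural genes summed to 89.6 and 64.7 CPM in KO and 33.1 and 53.3 in WT. Of these Pax6 was higher, and Sox1, Nes and Tubb3 were not called. Tubb3 gave the largest part of the sum, with 62.5 and 31.7 CPM in KO and 23.9 and 39.6 in WT, so its groups overlapped. The 4 trophoblast genes summed to at most 16.6 CPM in any library. The mitochondrial share of counts was 4.93% to 5.08% in KO libraries and 5.58% to 6.02% in WT libraries. What part any of these has in the member results was not tested. In bulk samples, more cells of a type and more RNA per cell cannot be told apart.

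Cells without the cluster had more RNA of some members of the ER machinery, while most members did not pass the test in either direction. The ERAD adaptor Herpud1 was 3.99-fold higher, the lectin Os9 2.13-fold, the transcription factor Xbp1 2.09-fold, the BiP co-chaperone Dnajc3 1.97-fold and the oxidase Ero1l 1.88-fold. Sel1l, Calr and Hspa5 were higher by 1.59-fold, 1.55-fold and 1.43-fold. Sdf2l1, a partner of BiP and of ER J-domain proteins, went the other way and fell by 1.09 on the log2 scale. Of the 37 members that passed the filter on low counts, 8 were called higher (21.6%) and 1 lower by edgeR, with 0.05 as the limit of the Benjamini-Hochberg adjusted p. Called by that same limit, 7.42% of all 14427 tested genes were higher and 4.96% were lower. Both KO libraries lay above both WT libraries for 20 of the 37 (29.2% of all tested genes) and below them for 4 (28.8%), in CPM of library total. The median log2 fold change was 0.16 over the members and -0.01 over all genes tested. The member median was 0.23 without KO library 1, 0.20 without KO library 2, 0.29 without WT library 1 and 0.20 without WT library 2. Fewer members were called higher without KO library 1 and without KO library 2, where 1 KO library remains. The number of genes called higher over the whole table fell in the same fits. It rose without WT library 1 and without WT library 2, where 1 WT library remains. Why these fits differ was not tested.

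The 38 genes together held 5231 and 4782 CPM in KO and 4191 and 4280 CPM in WT. Hspa5 and Calr alone gave 1473 and 1282 CPM of this in KO and 987 and 885 in WT. The other 36 genes summed to 3758 and 3499 in KO and 3204 and 3394 in WT. Both KO sums exceeded both WT sums in each of these totals. The other 36 genes still include Herpud1, Os9, Xbp1, Dnajc3, Ero1l and Sel1l, called higher, and Sdf2l1, called lower. That sum therefore does not show a rise of the members that were not called.

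**Figure D2:**
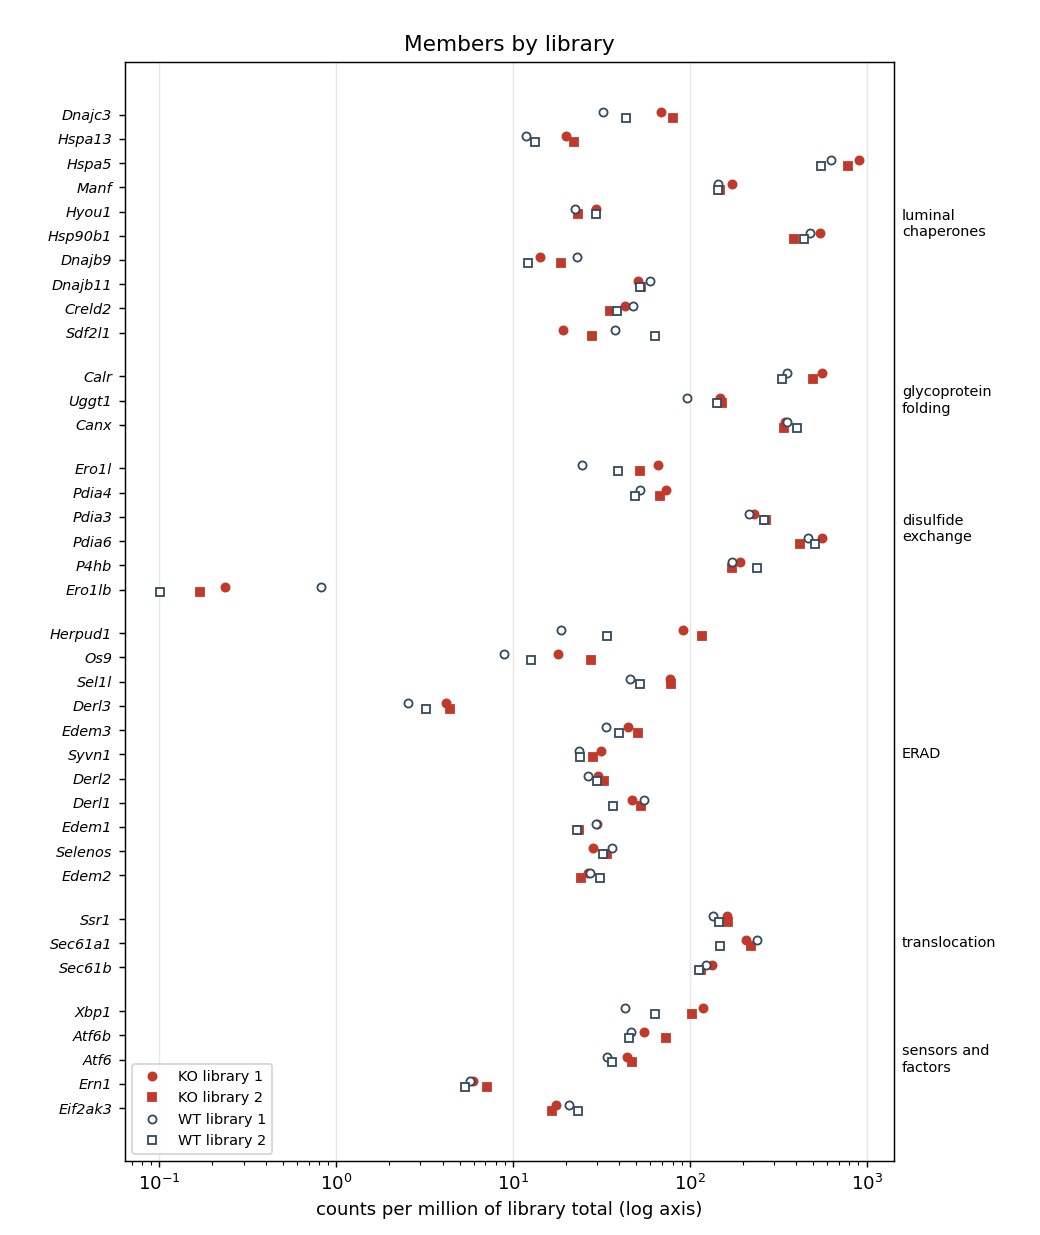
Level of each of the 38 members in each library, in CPM of library total on a log axis, grouped by role. Filled red symbols are KO and open symbols WT. The groups stand apart for Herpud1, Xbp1, Dnajc3 and Calr, and the symbols mix for Hsp90b1, Pdia6 and Hyou1.

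Of the 10 luminal chaperones and their cofactors, 2 rose, 1 fell and 7 did not pass the test. Hspa5 encodes BiP, the HSP70 chaperone of the ER lumen. Its level was 911 and 782 CPM in KO libraries 1 and 2 and 631 and 554 in WT libraries 1 and 2. The KO values were both the higher ones, with a log2 fold change of 0.52 (SE 0.15, edgeR adjusted p = 0.0495). That call lies at the threshold, and it was lost when KO library 1 was left out (0.41, edgeR adjusted p = 0.362), when KO library 2 was (0.63, 0.101) and when WT library 2 was (0.41, 0.0844). Hsp90b1, the HSP90 of the same compartment (GRP94), held 547 and 389 CPM in KO and 477 and 445 in WT. Here the KO libraries lay on both sides of the WT libraries, and the log2 fold change was 0.02 (95% interval -0.37 to 0.41). The Hsp90b1 promoter holds the ERSE at 2 places, and the part of these matches in its level was not tested.

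Dnajc3 encodes P58IPK, a J-domain cofactor of BiP that is also known as an inhibitor of PERK. It held 68.9 and 80.4 CPM in KO and 32.2 and 43.7 in WT, a log2 change of 0.98 (SE 0.20, edgeR adjusted p = 0.0152). The groups did not overlap, and without KO library 2 the change was 0.87 (edgeR adjusted p = 0.0915). The other J-domain cofactors showed no such separation. Dnajb11 (ERdj3) held 51.3 and 52.8 CPM in KO and 59.8 and 52.5 in WT, and Dnajb9 (ERdj4) 14.3 and 18.8 in KO and 23.0 and 12.2 in WT, so that the WT libraries of Dnajb9 lay farther apart than the groups. Their log2 changes were -0.11 and -0.10.

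Sdf2l1 was the lower member. It held 19.3 and 28.0 CPM in KO and 37.6 and 63.6 in WT, with a log2 change of -1.09 (SE 0.28, edgeR adjusted p = 0.0349). The groups did not overlap, but the spread within WT was large, and the change was -0.69 without WT library 2 (edgeR adjusted p = 0.0637) and -0.84 without KO library 1 (0.177). The primitive endoderm markers were lower in the same libraries (above), and their part in the level of Sdf2l1 was not tested. Hspa13, a microsomal HSP70-like protein, held 19.96 and 22.1 CPM in KO and 11.8 and 13.4 in WT. Its groups stood apart, yet the log2 change of 0.74 (SE 0.24) missed the threshold (edgeR adjusted p = 0.0709) and passed it without WT library 2 (0.81, 0.0492). Manf, a small ER-resident and secreted protein, held 173 and 148 CPM in KO and 145 and 144 in WT. The nucleotide exchange factor Hyou1 and Creld2, an ER-resident protein with EGF-like repeats, had log2 changes of 0.03 and -0.15, with overlapping groups.

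Of the 3 genes of glycoprotein folding, 1 rose. Calreticulin (Calr), the soluble lectin chaperone, held 561 and 500 CPM in KO and 356 and 331 in WT. All KO values lay above all WT values, with a log2 change of 0.63 (SE 0.14, edgeR adjusted p = 0.0209). Without KO library 1 it was 0.55 (edgeR adjusted p = 0.192) and without KO library 2 it was 0.71 (0.0674). Calnexin (Canx), its membrane-bound relative, held 345 and 341 CPM in KO and 357 and 405 in WT, a change of -0.15 (95% interval -0.45 to 0.16). Uggt1, the enzyme that re-glucosylates misfolded glycoproteins and so returns them to the lectins, held 148 and 153 CPM in KO and 96.3 and 143 in WT. Its log2 change was 0.34 with all libraries, 0.62 (edgeR adjusted p = 0.0168) without WT library 2 and 0.088 (0.756) without WT library 1.

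Of the 6 genes of disulfide exchange, 5 were tested and 1 rose. Ero1l (ERO1 alpha) is the oxidase that keeps disulfide isomerases oxidized. It held 66.2 and 52.5 CPM in KO and 24.6 and 39.1 in WT, with groups that did not overlap and a log2 change of 0.91 (SE 0.24, edgeR adjusted p = 0.0388). Leaving out KO library 1 gave 0.74 (edgeR adjusted p = 0.211), and leaving out WT library 1 gave 0.62 (0.0622). Pdia4 (ERp72) held 73.9 and 67.7 CPM in KO and 52.5 and 49.2 in WT, and its change of 0.48 (SE 0.17) missed the threshold (edgeR adjusted p = 0.099). The other isomerases had mixed groups. Pdia6 held 559 and 419 CPM in KO and 468 and 512 in WT, with a log2 change of 0.00 (95% interval -0.36 to 0.36) whose sign turned under 7 of 10 alternatives. Pdia3 (ERp57), the isomerase that works with the lectins, and P4hb, the archetypal protein disulfide isomerase, had changes of 0.07 and -0.17. Ero1lb (ERO1 beta) held 3 and 2 counts in KO and 10 and 1 in WT, at or near the floor of 3 counts, and did not pass the filter.

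Of the 11 ERAD genes 3 rose, 0 fell and 8 did not pass. Herpud1 is a ubiquitin-like membrane protein that organizes the HRD1 complex. It held 91.5 and 118 CPM in KO and 18.7 and 34.2 in WT. The lower KO library stood well above the higher WT library, and the log2 change was 2.00 (SE 0.27, edgeR adjusted p = 0.00238), between 1.63 and 2.46 with 1 library left out and past the threshold each time. Os9 encodes a lectin that hands misfolded glycoproteins to SEL1L. It held 18.1 and 27.6 CPM in KO and 8.88 and 12.7 in WT, a change of 1.09 (SE 0.30, edgeR adjusted p = 0.042), which was 0.76 (edgeR adjusted p = 0.324) when KO library 2 was left out and 0.86 (0.0701) when WT library 1 was.

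Sel1l, the adaptor of the ubiquitin ligase HRD1, was the most even of the 3 within KO. It held 77.1 and 78.0 CPM in KO and 45.7 and 52.3 in WT, with a log2 change of 0.67 (SE 0.17, edgeR adjusted p = 0.0331). Without KO library 1 it was 0.68 (edgeR adjusted p = 0.184) and without KO library 2 it was 0.66 (0.201). Syvn1, which encodes HRD1 itself, held 31.5 and 28.3 CPM in KO and 23.5 and 24.0 in WT, a change of 0.33 (SE 0.20) that did not pass. Among the mannosidase-like Edem genes, Edem3 held 44.7 and 50.9 CPM in KO and 33.5 and 39.7 in WT (0.39), Edem1 had overlapping groups (0.02), and Edem2 was lower in both KO libraries (-0.20), and none of them passed. The Derlin genes, whose products form part of the retrotranslocation channel, had changes of 0.11 (Derl1), 0.16 (Derl2) and 0.58 (Derl3, at most 53 counts in a library). Selenos, a selenoprotein that recruits the ATPase p97, changed by -0.14.

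Of the 3 translocation genes, edgeR called 0, also at an unadjusted p below 0.05, and the DESeq2 test called 0. Sec61a1, the channel subunit of the translocon, held 209 and 222 CPM in KO and 239 and 149 in WT, so that its WT libraries enclosed both KO values. Its log2 change was 0.15 with all libraries, 0.55 without WT library 1 (edgeR adjusted p = 0.0299) and -0.17 without WT library 2. Sec61b and Ssr1, the alpha subunit of the translocon-associated complex TRAP, had changes of 0.08 and 0.21 with 95% intervals of -0.28 to 0.44 and -0.11 to 0.53.

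Of the 5 sensors and transcription factors, 1 rose. Xbp1, whose mRNA is spliced by IRE1 into the form that encodes the active factor, held 119 and 103 CPM in KO and 42.8 and 63.5 in WT. The groups did not overlap, and the log2 change was 1.07 (SE 0.20, edgeR adjusted p = 0.012), between 0.82 and 1.35 with 1 library left out and past the threshold each time. Counts at the 3′ end do not tell the spliced from the unspliced form. Atf6 held 44.3 and 47.3 CPM in KO and 34.1 and 36.5 in WT (0.38, SE 0.18), and Atf6b 54.9 and 73.3 in KO and 46.3 and 45.4 in WT (0.48, SE 0.19). Both had groups that stood apart and neither passed (edgeR adjusted p = 0.208 and 0.139). Without KO library 2 the change of Atf6b was 0.27 (edgeR adjusted p = 0.707). Ern1 (IRE1) held 5.97 and 7.14 CPM in KO and 5.75 and 5.34 in WT. Eif2ak3 (PERK) held 17.4 and 16.7 CPM in KO and 20.7 and 23.4 in WT, a change of -0.37 (SE 0.22) that did not pass.

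**Figure D3:**
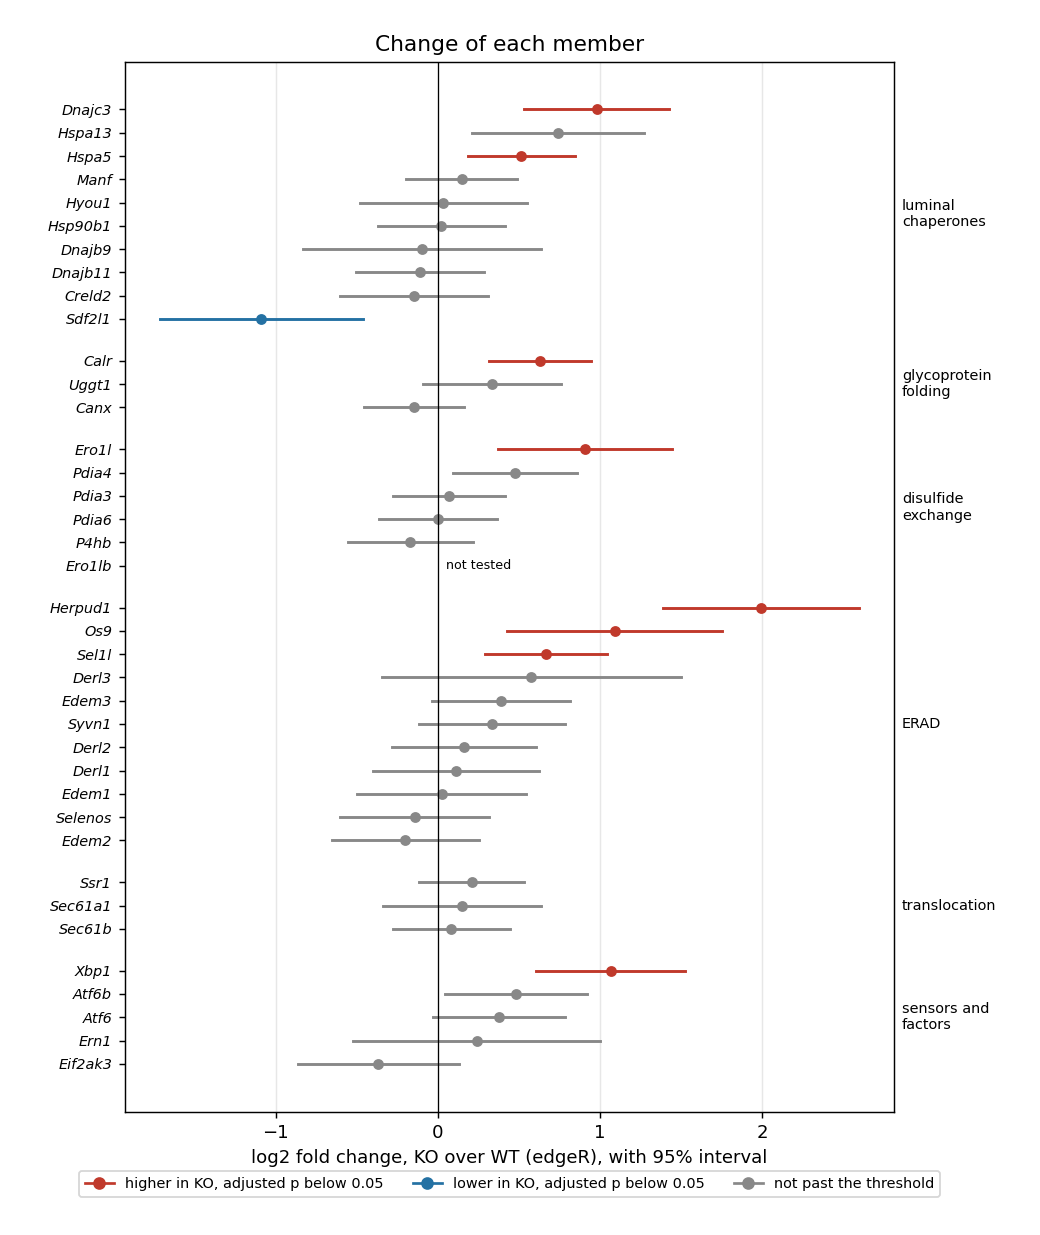
Log2 fold change of each tested member, KO over WT, with its 95% interval from edgeR, grouped by role. Red points are higher and the blue point lower at an adjusted p below 0.05. Herpud1 lies farthest to the right at 2.00 and Sdf2l1 farthest to the left at -1.09.

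The 9 called members kept their direction under the 10 alternatives run, and Herpud1 and Xbp1 also kept their call in all 10. Dnajc3 kept it in 9, Calr and Sdf2l1 in 8, Sel1l in 7, Os9 and Ero1l in 6 and Hspa5 in 4. Of the 28 members not called, 16 kept their sign in each alternative that tested them and 3 (Sec61a1, Uggt1 and Hspa13) passed the threshold when 1 WT library was left out. None of the 9 called members overlaps another annotated gene except Herpud1, whose antisense partner Gm15890 held 0 counts in all libraries.

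**Figure D4:**
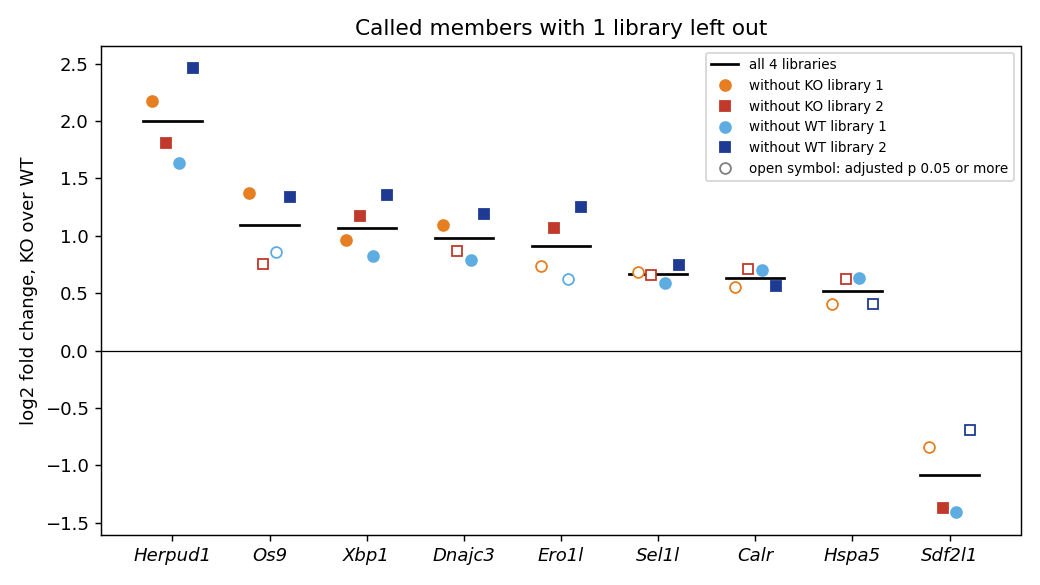
Log2 fold change of the 9 called members with all 4 libraries (black line) and with each library left out in turn (symbols), where open symbols have an adjusted p of 0.05 or more. Herpud1 and Xbp1 have 4 filled symbols each, and Hspa5 has 1.

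The promoter elements printed above were present both in members that rose and in members that were not called. Of the 8 higher members, all of which had a promoter in the table, 3 held an ERSE (Hspa5, Calr and Dnajc3) and 1, Herpud1, an ERSE-II. Of the 22 members that were not called and had a promoter, 6 held an ERSE (Hsp90b1, Canx, Pdia6, Creld2, Syvn1 and Derl3) and 1, Dnajb11, an ERSE-II. Sdf2l1 held neither within this window, and neither did Xbp1, Os9, Sel1l or Ero1l. The member elements lay between 212 bases before and 18 bases after the start.

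Matches to the seed shared by the 3 microRNAs printed above were searched in the longest annotated 3′ UTR of each gene (GENCODE vM21). Counted as matches were AGCACTT, which pairs with bases 2 to 8, and GCACTTA, which pairs with bases 2 to 7 and ends in an A. They were present in 10 of the 37 tested members, or 27.0%, against 21.8% of the 12495 tested genes with a 3′ UTR, which had a median length of 1331 bases (1260 in the members). Of the 8 higher members Os9 held a match and the other 7 held none, Herpud1, Xbp1 and Hspa5 among them. The remaining 9 members with a match were not called. The 8-base form AGCACTTA was present in 3 members (3.58% of tested genes), Os9 (1.09), Atf6b (0.48, and 0.27 without KO library 2) and Ssr1 (0.21), with log2 changes in brackets. The median change was 0.23 over the 10 members with a match and 0.15 over the 27 without. Ssr1 held 6 matches in a 3′ UTR of 8338 bases, of which only the 8-base one is shown. The 8-base sites of these 3 members, and the sites of Hspa13 (0.74) and of Pdia6 (0.00) for comparison, are printed with the match in capitals.
Os9: cccaacttcttAGCACTTAaccccactcta
Atf6b: tgtgggggttaAGCACTTAgtgggactagg
Ssr1: cccaaacttcaAGCACTTAagatttcaaga
Hspa13, first: ggtagccatccGCACTTActagtctggaa
Hspa13, second: gaaaaagatcaAGCACTTcagcttcccaa
Pdia6: actcaggactgAGCACTTtattgtaactt

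Other genes of the secretory pathway, in 6 lists that exclude the members, held 117 tested genes, of which 7 were called higher (5.98%) and 5 lower (4.27%). Both shares are near those over all tested genes, 7.42% and 4.96%. Of 20 tested genes of the translocon, signal peptidase and signal recognition particle, edgeR called 0 higher and 0 lower, with 2 higher and 1 lower at an unadjusted p below 0.05 and 0 called by the DESeq2 test. At that unadjusted limit 2201 of all tested genes were higher (15.3%) and 1869 lower (13%). The median log2 change was -0.05. Of 17 oligosaccharyltransferase and glucosidase genes 2 were higher and 2 lower. The malectin gene Mlec rose by 0.74 and the glucosidase gene Mogs by 0.88, while the oligosaccharyltransferase subunit genes Ost4 and Dad1 changed by -0.97 and -0.60 (edgeR adjusted p = 0.0156 to 0.0473). The calls of Mlec, Mogs and Dad1 were lost without KO library 1 and without KO library 2, and that of Ost4 without KO library 1. Mogs kept its call in 4 of 10 alternatives (0.53 to 1.33 with 1 library left out) and lost it also without WT library 2, with DESeq2 size factors, at a mean CPM of at least 10 and with a replicate block, under which Dad1 lost its call too.

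Of 20 other disulfide and prolyl isomerase genes, Fkbp10 was higher and Fkbp11 lower. Fkbp10, whose product acts on procollagen, held 26.6 and 30.7 CPM in KO and 14.3 and 13.1 in WT, a log2 change of 1.06 (edgeR adjusted p = 0.017) that lost its call without KO library 2. Fkbp11 held 13.5 and 11.2 CPM in KO and 36.7 and 48.5 in WT, a change of -1.78 (edgeR adjusted p = 0.00201). Of 17 chaperone cofactors and KDEL receptors, Serpinh1, the collagen chaperone HSP47, was higher with 212 and 235 CPM in KO against 69.3 and 87.7 in WT (1.52, edgeR adjusted p = 0.000954). Kdelr3, 1 of 3 receptors that return soluble chaperones from the Golgi, was lower with 15.4 and 15.6 CPM in KO against 75.8 and 94.5 in WT (-2.45, edgeR adjusted p = 0.000205). The other receptor genes, Kdelr1 and Kdelr2, changed by 0.11 and 0.17 and did not pass. The primitive endoderm markers were lower in the same KO libraries, with values given above, and their part in the levels of Kdelr3 and Fkbp11 was not tested.

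Of 26 other ERAD genes, Ubxn4 was higher (0.52, edgeR adjusted p = 0.0493) and the membrane ubiquitin ligase gene Rnf5 lower (-1.25, edgeR adjusted p = 0.005). Ubxn4 kept its call in 2 of 10 alternatives, and without 1 library only when WT library 2 was left out. Of 18 genes of unfolded protein response signalling, Trib3, a pseudokinase known as a target of CHOP (1.37, edgeR adjusted p = 0.00404), and Ppp1r15b (0.59, edgeR adjusted p = 0.0281) were higher and 0 lower. Trib3 held 124 and 138 CPM in KO and 40.5 and 61.5 in WT. The call of Ppp1r15b was lost without KO library 1 and without KO library 2. Atf4 and Ddit3 (CHOP), the transcription factors of the PERK branch, changed by 0.16 each and did not pass. Atf4 held 587 and 782 CPM in KO and 763 and 459 in WT, and Ddit3 26.6 and 20.6 in KO and 11.5 and 31.1 in WT, so that the groups overlapped for both.

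**Figure D5:**
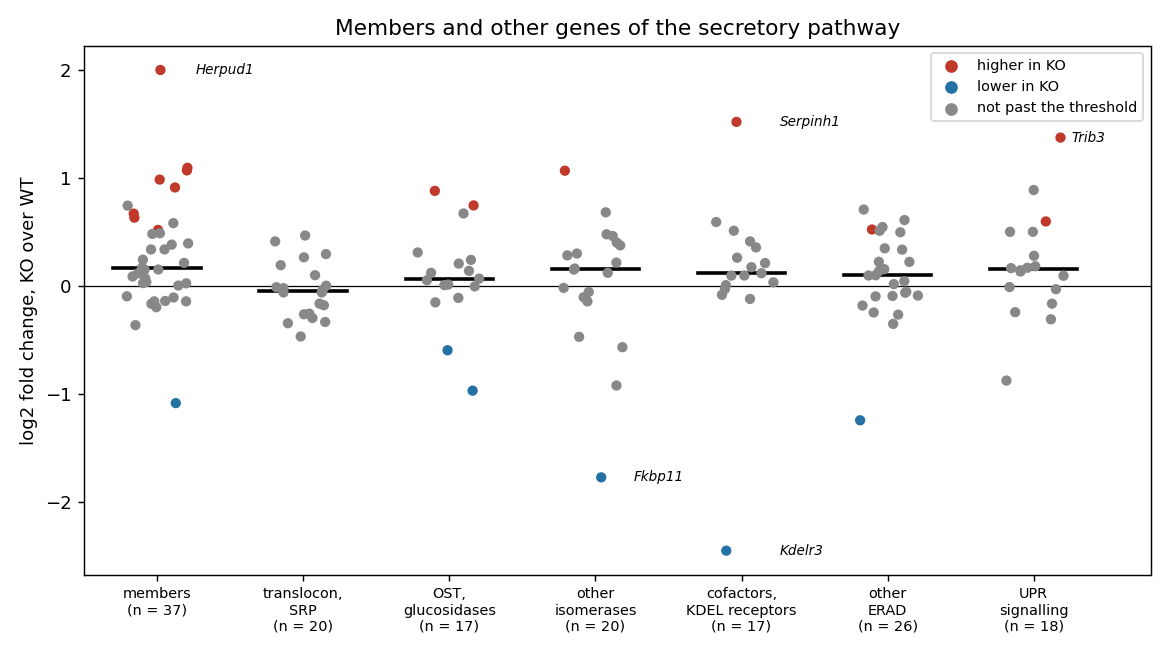
Log2 fold change, KO over WT, of the 37 tested members and of the tested genes of 6 lists of the secretory pathway, with each list's median as a black line. Red points are higher and blue points lower at an adjusted p below 0.05. Kdelr3 lies lowest at -2.45. The member median is 0.16, and the medians of the other lists run from -0.05 to 0.15.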

How the data were processed

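The authors deposited raw counts per Ensembl gene identifier, as whole numbers with no normalization. Per the submitters' processing notes, reads were handled with Trim Galore and the build is GRCm38. Which aligner, counting program, strand setting and annotation release were used is not given in the sources used here, so reads of overlapping genes or of near-identical copies may have been split in ways the table does not record. Groups came from the sample titles.

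Genes were named with GENCODE vM21 (GRCm38): 55240 of 55421 identifiers had a symbol, and the other 181 held 0.0025% of counts. CPM is per library total. KO was compared with WT in edgeR 4.0.16 (R 4.3.3; quasi-likelihood F test, two-sided, TMM, filterByExpr), with Benjamini-Hochberg adjustment over all 14427 genes tested. The common biological coefficient of variation came to 0.198. Standard errors were taken from the F statistic as |log2 fold change| over its root, and 95% intervals use the fit's degrees of freedom. The test was tried on simulated data first. Alternatives were DESeq2 1.42.0 size factors and test, library totals, 2 other filters, a replicate block and each library left out.

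Every member could be named, as could up to 4 called genes with the smallest p of each other list. Outside that rule, Kdelr1, Kdelr2, Atf4, Ddit3 and Krtcap2 of these lists were also named, and none of them was called. Members, lists and tests were chosen with earlier results of these data known. Protein sequences were not used here, so the C-terminal retrieval signals were not compared. Promoters and microRNAs are from RefSeq (GRCm38.p6). For the 1 member with several starts the first in the table was taken. 3′ UTRs are the bases after the stop codon in GENCODE transcripts.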

Additional observations from a re-analysis of the deposited data

How the results depend on the processing

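Of the 9 called members all kept their sign under each alternative run. Requiring a mean CPM of at least 10 left 8711 genes and called 636 higher and 391 lower. Of the 35 members tested there, 5 were higher, without Hspa5, Os9 and Ero1l, and the member median was 0.128. No low-count filter called 1590 higher and 1193 lower. With a replicate block the counts were 638 and 370 of 14427 genes. Of the 37 members tested there, 5 were higher, without Sel1l, Os9 and Ero1l, and the median was 0.192. The labels do not say whether same-numbered libraries were made together. Across genes, the difference between the KO libraries and that between the WT libraries had a correlation of -0.07. With 1 difference per group, this value cannot settle the question. With 1 library left out, genes called higher ranged from 556 to 1477 and lower from 285 to 1011, members higher from 3 to 9 and lower from 0 to 1, and the member median from 0.202 to 0.286, and fewer samples remain in these fits. Hspa5 also missed the threshold with DESeq2 size factors and with the DESeq2 test. Signs turned for members that were not called. Pdia6 gave -0.00694 with DESeq2 size factors and with the DESeq2 test, -0.00229 with library totals, -0.0221 at a mean CPM of at least 10 and -0.0131 with the block, and Hsp90b1 gave -0.00109 at that CPM. Ranges with 1 library left out were -0.24 to 0.25 for Hsp90b1, -0.21 to 0.20 for Pdia6, -0.047 to 0.19 for Pdia3, -0.37 to 0.053 for P4hb, -0.50 to 0.46 for Dnajb9, -0.22 to 0.0055 for Dnajb11, -0.15 to 0.22 for Hyou1, -0.30 to 0.029 for Creld2, -0.16 to 0.46 for Derl1, -0.16 to 0.24 for Edem1, -0.17 to 0.55 for Sec61a1 and -0.018 to 0.19 for Sec61b. The cause of these turns was not tested. Counts near the floor limit the values of the microRNA genes and of Ero1lb, and a lone library in a group is assumed to vary like the others.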

Other observations

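Genes outside the member list whose RefSeq promoter holds an exact ERSE or ERSE-II were looked up after the member results were known. For the ERSE there were 27 such genes, of which 9 were tested, 0 were higher and 1 was lower, with a median log2 fold change of 0.03. The lower gene was Zfp57, which encodes a zinc finger protein known for keeping imprints, with -1.64 (SE 0.31, edgeR adjusted p = 0.0116). Spats2l had the largest positive value, 1.32 (SE 0.42, edgeR adjusted p = 0.0698), and did not pass. For the ERSE-II there were 10 such genes, of which 8 were tested and 0 were called. They included Krtcap2, a subunit of the oligosaccharyltransferase (0.12), and Nucb1, a calcium-binding protein of the Golgi (0.21).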
